A study of Mus musculus with 12 samples.

Results

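The mitosis and G2/M genes are 50 named genes whose products carry a cell from the end of DNA replication through division. Each was read on the array's probe sets that list it as their single gene, and the probe set with the highest mean signal over 12 arrays stood for the gene. In this way 49 of the 50 were measured, among 18193 genes in all, and Ccnb1 was not analysed here. RNA came from 6 lung tumours that arose spontaneously in untreated B6C3F1 mice and from 6 normal lungs of the same hybrid strain, 1 Affymetrix array per sample. All mice were 2 years old and came from a long-term bioassay, in which B6C3F1, a cross of C57BL/6 and C3H mice, is a standard strain. No label states that each sample is from an animal of its own, and the p-values here reflect only how these 12 samples vary. A difference is the mean log2(signal + 16) of tumours less that of normal lungs, given with its standard error at n = 6 arrays per group. Tests were two-sided in limma, and each adjusted p is a Benjamini-Hochberg value over 45037 probe sets, read at a threshold of 0.05. A gene that passed the threshold is said to have risen or fallen in tumours.

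Mitosis is started by the kinase Cdk1 bound to A and B cyclins and ended when the anaphase-promoting complex, a ubiquitin ligase, marks cyclin B and securin for destruction. Most genes of this programme are silent in resting cells and are transcribed together in late cell cycle, when B-Myb and Foxm1 act through the CHR element, a short sequence near the start site, often beside CCAAT boxes bound by NF-Y. In resting cells the same element is bound by the repressive DREAM complex. Normal adult lung holds few dividing cells, and transcripts such as Mki67 are used widely as measures of proliferation in tumours.

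The CHR core and the CCAAT box were looked up in RefSeq promoters (assembly GRCm38.p6, 250 bases before to 50 after the start), which were found for 41 of the 49 genes. The CHR core was searched as TTTGAA and the box as CCAAT, each on both strands, and matches of both can overlap in no more than an end base. Members that rose had 38 promoters from 36 genes, as Prc1 and Ect2 each had an extra, overlapping window that also held a core. The core was in 30 of 38 promoters of members that rose in tumours (78.9%). Only 5 of the members that did not rise had a promoter, too few for a comparison with the risers. The core was in 1 of these 5, that of Kif4. It was in 13.3% of 18066 promoters of the other measured genes, whose median GC content of 58.3% was that of the risers, and in 7 of 45 promoters (15.6%) of DNA replication and G1/S genes. CCAAT boxes were in 28 of the 38 promoters of risers (73.7%), against 37.3% of promoters of the other measured genes, and both motifs together were in 68.4% against 5.09%. Most matches of the core lay close to the start: 29 of the 38 promoters of risers held it between 100 bases before and 50 after the start, against 5.3% of the others. These are matches of letters and say nothing of binding.

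Promoters of 6 members that rose are printed because they show the element in different settings, and that of Pttg1 because it is the member that fell. Each runs 5′ to 3′ on the gene's strand from 150 bases before the start to 30 bases after it, with matches of the CHR core (TTTGAA, or TTCAAA where the match is on the opposite strand) and of the CCAAT box (CCAAT, or ATTGG on the opposite strand) in capitals. The windows are Ccnb2 (chr9:70421525-70421704, minus strand), Cdk1 (chr10:69352883-69353062, minus strand), Cdc20 (chr4:118437314-118437493, minus strand), Ube2c (chr2:164769779-164769958, plus strand), Top2a (chr11:99024160-99024339, minus strand), Mki67 (chr7:135716350-135716529, minus strand) and Pttg1 (chr11:43425952-43426131, minus strand).
Ccnb2: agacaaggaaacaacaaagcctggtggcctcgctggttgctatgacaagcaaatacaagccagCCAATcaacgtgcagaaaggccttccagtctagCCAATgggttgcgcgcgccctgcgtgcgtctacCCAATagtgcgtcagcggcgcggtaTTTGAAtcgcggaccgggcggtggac
Cdk1: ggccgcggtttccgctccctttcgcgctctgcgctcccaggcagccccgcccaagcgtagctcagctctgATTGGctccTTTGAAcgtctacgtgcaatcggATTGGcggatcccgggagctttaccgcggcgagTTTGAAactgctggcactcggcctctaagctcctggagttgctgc
Cdc20: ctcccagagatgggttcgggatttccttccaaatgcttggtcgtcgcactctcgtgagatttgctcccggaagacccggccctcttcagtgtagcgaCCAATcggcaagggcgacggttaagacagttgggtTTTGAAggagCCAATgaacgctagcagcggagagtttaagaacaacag
Ube2c: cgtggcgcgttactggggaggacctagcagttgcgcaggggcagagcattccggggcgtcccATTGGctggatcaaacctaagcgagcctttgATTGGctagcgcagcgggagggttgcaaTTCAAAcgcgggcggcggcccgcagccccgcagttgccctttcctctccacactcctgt
Top2a: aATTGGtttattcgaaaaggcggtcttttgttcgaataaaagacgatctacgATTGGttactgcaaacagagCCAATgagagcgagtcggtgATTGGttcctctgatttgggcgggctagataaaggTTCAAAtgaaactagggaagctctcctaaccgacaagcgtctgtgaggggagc
Mki67: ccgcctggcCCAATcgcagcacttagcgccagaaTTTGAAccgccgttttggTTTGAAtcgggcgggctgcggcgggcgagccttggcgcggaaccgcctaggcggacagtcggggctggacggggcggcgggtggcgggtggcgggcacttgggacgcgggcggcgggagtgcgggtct
Pttg1: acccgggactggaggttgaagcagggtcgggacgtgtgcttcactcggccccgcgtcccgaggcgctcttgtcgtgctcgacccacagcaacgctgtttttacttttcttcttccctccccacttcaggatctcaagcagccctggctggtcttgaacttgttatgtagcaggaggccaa
The Cdk1 and Mki67 windows hold 2 cores each. The Ccnb2 window has 3 CCAAT boxes followed by a core just after the start, and the Top2a window has 4 boxes and 1 core. Neither motif is in the Pttg1 window.

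Of the 49 measured genes, 42 rose in tumours (85.7%, where 12.2% of all 18193 genes did) and 1, Pttg1, fell (17.5% of all genes did). The median difference over the 49 was 1.39, against -0.08 over all genes. At least 2-fold rises that passed the threshold were found for 37 members (75.5%, against 4.73% of all genes), and Pttg1 fell by more than 2-fold (10.6% of all genes did). Every tumour lay above every normal lung for 26 members (53.1%, against 6.77% of all genes) and below for Pttg1 (11.8% of all genes). The 6 that missed the threshold were Cdc25b, Cdc25c, Foxm1, Kif4, Nek2 and Ncaph. Many members were dim in normal lung, where the means of 27 of the 49 lay under that group's median probe set, against 3 in tumours, and the offset of 16 shrinks differences at such levels.

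**Figure D1:**
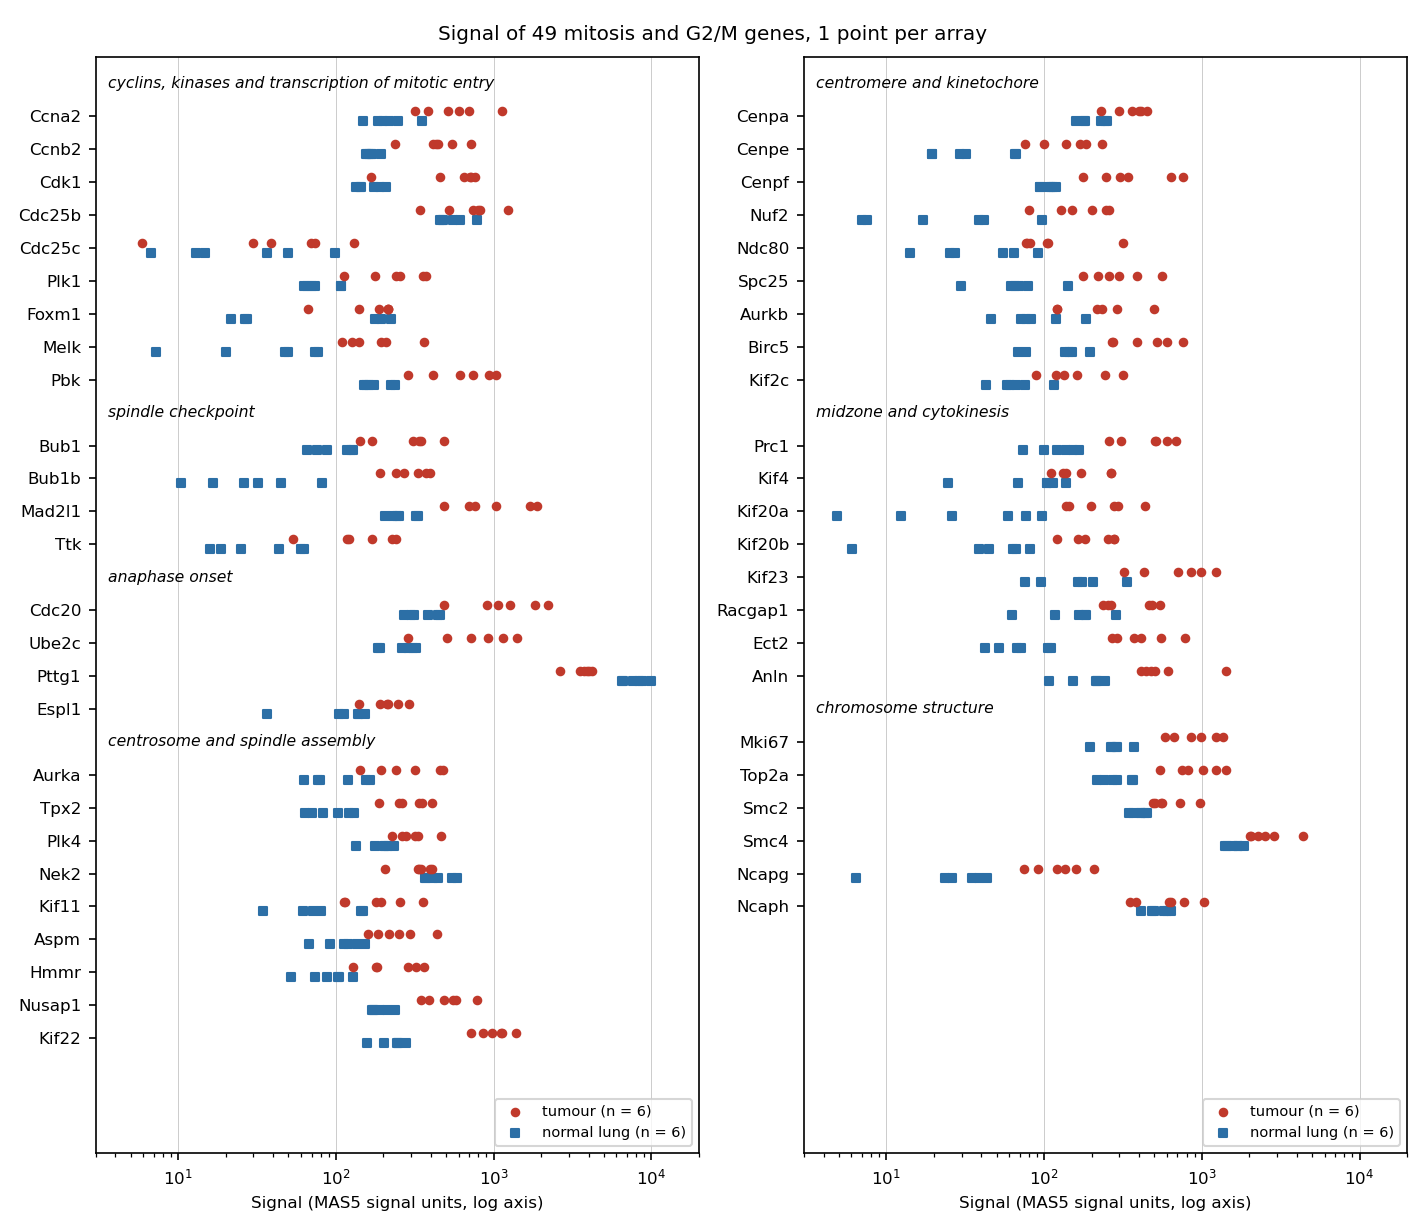
Signal of each of the 49 measured genes on every array (MAS5 signal units, log axis), by role, with tumours as red circles above normal lungs as blue squares, 6 arrays each. Tumour points lie to the right of all normal lung points for 26 genes, and to their left for Pttg1.

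The groups also differed in sex-linked transcripts and in the make-up of the tissue. Eif2s3y, a Y-linked gene, was at 740.5 to 1638 in tumours 1, 2, 3 and 5. It was no higher than 12.6 in tumours 4 and 6, and no higher than 27.4 in normal lungs. Xist ran the other way, at 47.1 to 109 in tumours 1, 2, 3 and 5 and at 7877 to 12621 on all other arrays. Tumours 1, 2, 3 and 5 thus differed from every normal lung in sex-linked transcripts as well as in group. Tumours 4 and 6 alone against the 6 normal lungs gave 33 members that rose, and the fit with Eif2s3y as a covariate gave 38. The shares of all genes that rose in these fits are not given here. Of all genes called, 39.4% were higher with tumours 4 and 6 alone and 37.9% with the covariate, against 41.1% in the main fit. Calls lost with tumours 4 and 6 alone were those of Espl1, Plk4, Kif11, Aspm, Cenpa, Cenpe, Ndc80, Aurkb and Racgap1. Those of Espl1, Kif11, Aurkb and Racgap1 were also lost with the covariate. Epithelial markers rose in 5 of 6 cases (12.2% of all genes rose). Their list means were 12.47 to 14.12 in tumours and 11.47 to 11.69 in normal lungs. Endothelial markers fell in 9 of 9 cases (17.5% of all genes fell). Their means were 8.39 to 9.93 in tumours and 12.07 to 12.50 in normal lungs. In whole tissue, more dividing cells and more RNA of these genes per cell cannot be told apart. The part of cell make-up in the differences below was not tested.

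Genes of mitotic entry rose in 6 of 9 cases, with a median difference of 1.33. Cdk1, the kinase at the centre of mitotic entry, had signals of 168 to 758 in tumours (median 677) and of 135 to 209 in normal lungs (median 159). It overlapped between the groups through tumour 1 alone, and rose by 1.58 ± 0.30 (adjusted p = 0.00127). Ccnb2, a B-type cyclin, was at 237 to 719 in tumours (median 437), above the 154 to 192 of normal lungs (median 164), and rose by 1.33 ± 0.21 (adjusted p = 2.78e-04). Pbk, a mitotic protein kinase, was at 288 to 1033 in tumours (median 677) and at 149.9 to 235 in normal lungs (median 167), with no overlap (1.68 ± 0.27, adjusted p = 3.10e-04). The polo-like kinase Plk1, which acts from entry to cytokinesis, was at 112 to 369.9 in tumours (median 248) and at 62.9 to 108 in normal lungs (median 72.3). Its groups did not overlap either, although tumour 1 stood just above the highest normal lung (1.39 ± 0.27, adjusted p = 0.00156). Ccna2, cyclin A2 (1.30 ± 0.27), and Melk, a kinase of dividing and progenitor cells (1.79 ± 0.37), also rose, with adjusted p-values of 0.00252 and 0.00235.

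The remaining entry genes missed the threshold. Cdc25b, a phosphatase that activates Cdk1, was at 339 to 1234 in tumours (median 769) and at 456 to 783 in normal lungs (median 515), a difference of 0.32 ± 0.25 (adjusted p = 0.403). Its groups overlapped widely, with tumour 2 below every normal lung. Cdc25c, a second phosphatase of this family, was dim in both groups, at 5.87 to 129 in tumours and 6.70 to 98.8 in normal lungs (0.49 ± 0.47, adjusted p = 0.514), and the other probe set of the gene did rise (1.08 ± 0.32, adjusted p = 0.0238). Foxm1, the transcription factor that drives many of these genes, was at 66.0 to 213 in tumours (median 199) and at 21.7 to 223 in normal lungs (median 102), a difference of 0.92 ± 0.51 (adjusted p = 0.219). Normal lungs were split for this gene, with 3 of them at 27.1 or less and 3 at 177 or more. None of the other 3 Foxm1 probe sets passed, and they differed in sign, from -0.41 to 1.36.

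All 4 spindle checkpoint genes rose, with a median difference of 1.74. This checkpoint holds the cell in metaphase until each chromosome is attached. Bub1b, which encodes the checkpoint protein BubR1, was at 189 to 392.1 in tumours (median 299.6) and at 10.5 to 82.1 in normal lungs (median 29.2). The groups were far apart, and its difference of 2.71 ± 0.31 was the largest of the 49 members (adjusted p = 1.41e-05). Mad2l1, whose product blocks Cdc20, was at 484 to 1872 in tumours (median 900.4) and at 205 to 332 in normal lungs (median 249), with no overlap (1.84 ± 0.28, adjusted p = 2.04e-04). The kinases Ttk (1.64 ± 0.35) and Bub1 (1.36 ± 0.28) rose as well, with adjusted p-values of 0.00304 and 0.00234.

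At anaphase onset 3 genes rose and 1 fell. Cdc20, the activator of the anaphase-promoting complex, was at 486 to 2194 in tumours (median 1171) and at 271 to 459 in normal lungs (median 347), without overlap (1.67 ± 0.29, adjusted p = 5.81e-04). Ube2c, the ubiquitin-conjugating enzyme of the same complex, was at 288 to 1398 in tumours (median 819) and at 185 to 323 in normal lungs (median 274). Tumour 1 lay within the normal range, and the other 5 tumours above it (1.48 ± 0.31, adjusted p = 0.00255). Espl1, separase, which cuts cohesin, rose less (0.89 ± 0.28, adjusted p = 0.0309), a call lost in 4 of the 12 fits that left out 1 array (adjusted p up to 0.0686).

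Pttg1, securin, the inhibitor of separase, ran the other way. Its signals were 2647 to 4185 in tumours (median 3808) and 6552 to 9932 in normal lungs (median 8039). Every tumour was below every normal lung, a difference of -1.12 ± 0.14 (adjusted p = 3.20e-05). The other 2 probe sets of Pttg1 fell too, by -0.60 ± 0.12 and -0.75 ± 0.22 (adjusted p = 0.00190 and 0.0202). Tumour 6, highest of the 6 in the mean over members, had the lowest Pttg1 signal on all 3 probe sets. Across the 6 tumours, which share 1 scaling, Pearson's r between Pttg1 and the mean of the other members was -0.62, given as a description.

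Centrosome and spindle assembly genes rose in 8 of 9 cases, with a median difference of 1.23. Kif22, a chromokinesin that moves chromosome arms, was at 723 to 1380 in tumours (median 1040.4) and at 156 to 276 in normal lungs (median 247). The lowest tumour was well above the highest normal lung, and the difference of 2.08 ± 0.17 had the smallest adjusted p of the members (8.50e-07). Nusap1, which bundles spindle microtubules, was at 347 to 782 in tumours (median 516) and at 170.3 to 237 in normal lungs (median 182), without overlap (1.33 ± 0.19, adjusted p = 9.88e-05). Aurka, the Aurora kinase of spindle poles, was at 143 to 479 in tumours (median 278) and at 62.9 to 165 in normal lungs (median 98.7). Tumour 1 lay within the normal range and the others above it (1.30 ± 0.31, adjusted p = 0.00611). Tpx2, the activator of Aurora A, rose by 1.49 ± 0.23 (adjusted p = 1.97e-04). Hmmr, a microtubule-binding protein (1.23 ± 0.27), the spindle pole protein Aspm (1.05 ± 0.25) and the bipolar spindle motor Kif11 (1.05 ± 0.34) also rose, as did Plk4, the kinase of centriole duplication (0.63 ± 0.19). The Kif11 call was lost in 8 of the 12 fits that left out 1 array, with adjusted p up to 0.0782, and the Plk4 call in 3 of them, with adjusted p up to 0.0603. Nek2, a kinase of centrosome separation, was at 206 to 403 in tumours (median 339) and at 366 to 585 in normal lungs (median 428), a difference of -0.43 ± 0.18 that missed the threshold (adjusted p = 0.0992). None of its other 3 probe sets passed.

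All 9 centromere and kinetochore genes rose, with a median difference of 1.61. Birc5, survivin, a subunit of the chromosomal passenger complex, was at 268 to 758 in tumours (median 456) and at 68.5 to 195 in normal lungs (median 139), without overlap (1.73 ± 0.29, adjusted p = 4.70e-04). Spc25, a subunit of the Ndc80 complex that binds microtubules, was at 178 to 560.1 in tumours (median 279) and at 29.6 to 141 in normal lungs (median 67.4), also without overlap (1.88 ± 0.31, adjusted p = 3.72e-04). Its partners Nuf2 (2.08 ± 0.40) and Ndc80 (1.16 ± 0.38) also rose. Ndc80 itself was at 316 in tumour 6, where the other 5 tumours were at 77.2 to 106. The Ndc80 call was lost in 6 of the 12 fits that left out 1 array (adjusted p up to 0.0837). Cenpf (1.63 ± 0.30) and the kinetochore motor Cenpe (1.61 ± 0.32) rose more than Cenpa, the centromeric histone H3 variant (0.73 ± 0.19). Aurkb, the kinase of the passenger complex (1.16 ± 0.35, adjusted p = 0.0234), and Kif2c, a microtubule depolymerase (1.10 ± 0.30, adjusted p = 0.0134), were in between. The Aurkb call was lost without normal lung 5 or tumour 5, with adjusted p of 0.0559 and 0.0519.

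Midzone and cytokinesis genes rose in 7 of 8 cases, with a median difference of 1.82, the highest of the 7 role groups. Ect2, an exchange factor that acts at the division plane, was at 269 to 779 in tumours (median 392.03) and at 42.5 to 110.2 in normal lungs (median 69.4), far apart (2.31 ± 0.28, adjusted p = 2.36e-05). Prc1, which crosslinks midzone microtubules, was at 258 to 691 in tumours (median 507) and at 73.7 to 167 in normal lungs (median 130.1), with no overlap (1.77 ± 0.26, adjusted p = 1.16e-04). The kinesins Kif20a (2.24 ± 0.42), Kif23 (2.02 ± 0.35) and Kif20b (1.88 ± 0.34) rose, as did Anln, anillin of the contractile ring (1.57 ± 0.28), and Racgap1, the partner of Kif23 (1.14 ± 0.31). Kif4, a chromokinesin encoded on the X chromosome, was at 111 to 266 in tumours (median 155) and at 24.7 to 138 in normal lungs (median 104). Its groups overlapped in 2 tumours, and the difference of 0.91 ± 0.33 missed the threshold (adjusted p = 0.0579). It passed after quantile normalization (1.09, adjusted p = 0.0253) and after median centring (1.10, adjusted p = 0.0237).

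Genes of chromosome structure rose in 5 of 6 cases, with a median difference of 1.16. Mki67, the coat protein of mitotic chromosomes, was at 581 to 1355 in tumours (median 923) and at 194 to 370.4 in normal lungs (median 277), with no overlap (1.67 ± 0.21, adjusted p = 3.29e-05). Top2a, the topoisomerase that untangles sister chromatids, was at 544 to 1428 in tumours (median 918) and at 217 to 364 in normal lungs (median 282), again without overlap (1.63 ± 0.22, adjusted p = 5.37e-05). Condensin genes differed among themselves. Ncapg, of condensin I, rose by 1.72 ± 0.30 (adjusted p = 5.72e-04), and the core ATPases Smc4 (0.68 ± 0.17) and Smc2 (0.60 ± 0.17) rose by less than 2-fold. Ncaph, another subunit of condensin I, was at 349 to 1033 in tumours (median 633) and at 413 to 642 in normal lungs (median 538), overlapping widely (0.16 ± 0.23, adjusted p = 0.681). Its other probe set did not pass either (-0.09 ± 0.26).

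**Figure D2:**
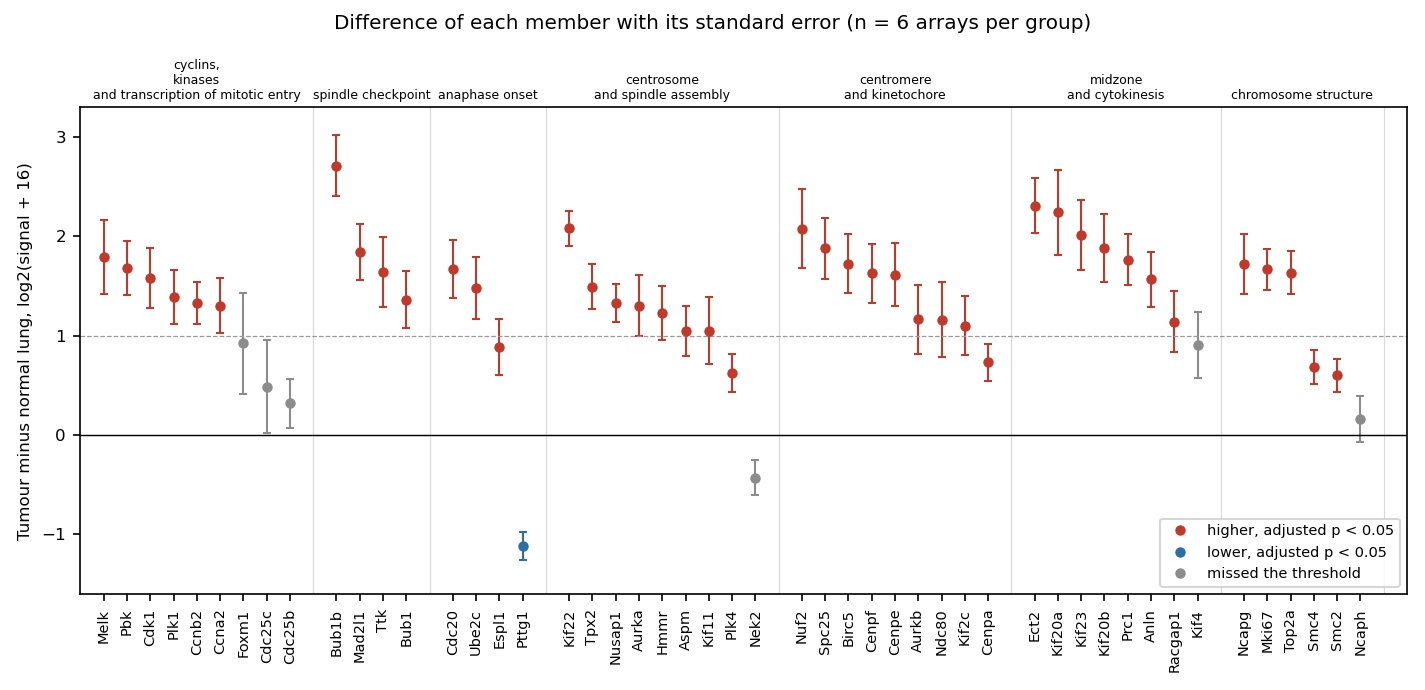
Mean log2(signal + 16) of tumours less that of normal lungs for each of the 49 genes, with the standard error of the difference (n = 6 arrays per group), by role and sorted within a role. Of the points, 42 are higher past the threshold (red), Pttg1 is lower (blue) and 6 missed it (grey); the dashed line marks a difference of 1.

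Other probe sets gave no call against the one used, but most of them did not pass the threshold. Of 113 probe sets of the 49 genes 65 rose and 3 fell, the 3 of Pttg1, and 43 genes had at least 1 probe set that rose. These counts include the probe sets that stood for the genes. Of the 64 other probe sets 23 rose and 2 fell. Shares over all probe sets are not given. Of the probe sets used, 5 end in _x_at, which marks probes that may bind other transcripts, among them those of Cdc20, Kif22 and Ncaph. For Cdc20 a probe set without such a mark rose too (1.12 ± 0.24). For Kif22 the unmarked probe set missed the threshold (1.15 ± 0.43, adjusted p = 0.0646), and another that ends in _s_at, shared among transcripts, rose (2.53 ± 0.36). Of the probe sets used, 5 also end in _s_at, those of Pbk, Plk4, Nek2, Prc1 and Pttg1. The other 2 probe sets of Pttg1 fell by less than 2-fold.

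The 6 tumours could be ranked by the mean of log2(signal + 16) over the 49 genes. Tumour 6 was highest at 9.15, followed by tumour 5 at 8.94, tumour 3 at 8.62, tumour 2 at 8.56, tumour 4 at 8.26 and tumour 1 at 7.90. Normal lungs lay between 7.21 and 7.33, so that the tumours spread over 1.25 and the normal lungs over 0.11. Tumours 3 and 2 were not ordered firmly, as they changed places after quantile normalization and after median centring. The places of the other 4 were the same under all 9 other settings of the offset, scaling, filter, probe set and normal lungs. The setting without normal lungs 2 and 4 could not move them, since it left the tumours' values as they were.

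The ranking is the mean of these same genes, so counts by gene describe it and are no support for it. Tumour 6 was the highest tumour for 28 of the 49 genes and tumour 5 for 16, and tumour 1 was the lowest for 39. Over the normal lungs, 45 of the 49 genes were above every normal lung in tumour 6 and 27 in tumour 1. For single tumours the shares over all genes were not computed, so these and the next counts only compare the tumours with each other. The mean of the normal lungs was exceeded by at least 1 log2 unit by 44 genes in tumour 6, 39 in tumour 5, 38 in tumour 3, 35 in tumour 2, 25 in tumour 4 and 13 in tumour 1. In tumour 1, Bub1b (238 against 10.5 to 82.1 in normal lungs), Ect2 (288 against 42.5 to 110.2) and Kif22 (723 against 156 to 276) were nonetheless well above every normal lung, and Cdk1 (168) and Ube2c (288) were not. Pearson's r of a member with the mean of the other members over the 6 tumours had a median of 0.85, and 33 of 49 exceeded 0.8. Mki67, Plk1 and Top2a were closest to that mean, each at 0.99, and Pttg1 and Cdc25b (-0.24) were below 0. These points share arrays and scaling.

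**Figure D3:**
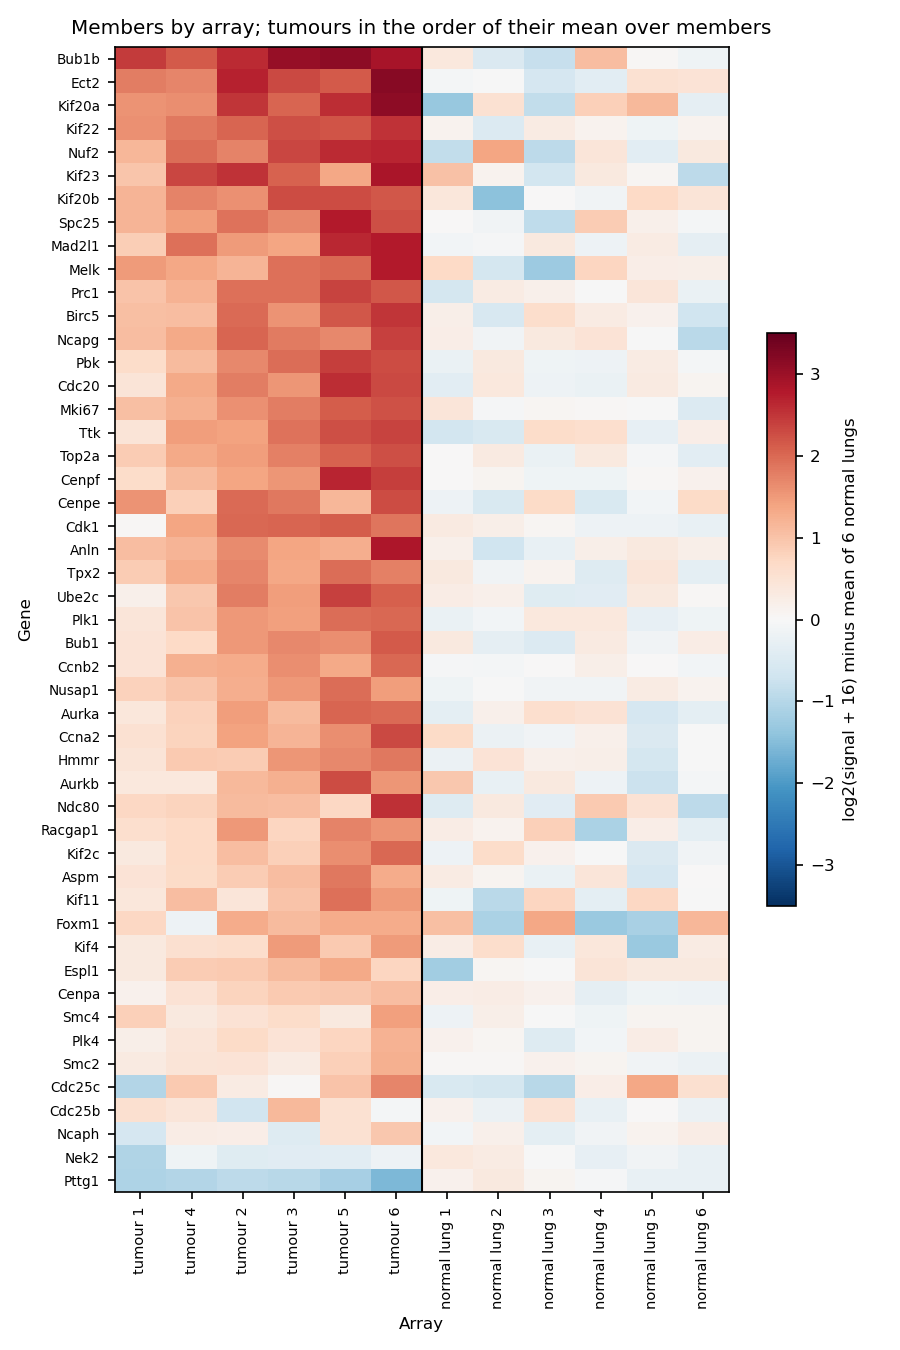
log2(signal + 16) of each gene minus the mean of the 6 normal lungs, with genes sorted by their difference and tumours from the lowest (tumour 1, 7.90) to the highest (tumour 6, 9.15) mean over the 49 genes. Red deepens from tumour 1 to tumour 6 for most genes, while Pttg1, in the bottom row, is blue in all 6 tumours.

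In every role group tumour 1 was lowest and tumour 4 next, but the other tumours changed places. Tumour 2 stood above tumour 3 in midzone (8.66 against 8.57), anaphase onset (10.02 against 9.90) and chromosome structure genes (9.43 against 9.36). In centromere and kinetochore genes it did so narrowly (7.927 against 7.924). In midzone and cytokinesis genes tumour 2 (8.66) stood above tumour 5 (8.62), and in centrosome and spindle genes tumour 5 (8.90) stood above tumour 6 (8.84). At anaphase onset tumour 5 was at 10.41, tumour 6 at 10.02 and tumour 2 at 10.02. Single genes departed further. Kif23 was at 983 in tumour 2 and 429 in tumour 5, and Cenpf at 304 and 757. Anln was at 1420 in tumour 6, against 409 to 614 in the other 5 tumours.

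Genes of the same phase outside the 49 rose too. Of 72 other measured mitosis and G2/M genes 39 rose in limma (54.2%, where 12.2% of all genes did). Falls numbered 0 (17.5% of all genes fell), and the median difference was 0.997. At an unadjusted p under 0.05, 50 were higher and 0 lower. Cks1b, a small partner of Cdk1, averaged 6195 ± 1885 in tumours and 1013 ± 78.0 in normal lungs (SD, n = 6 each), a difference of 2.54 ± 0.18 (adjusted p = 2.18e-07). Psrc1, a microtubule-associated protein, averaged 1314 ± 901 in tumours and 111 ± 30.7 in normal lungs (3.14 ± 0.38). Sgo2a, a guardian of centromeric cohesion (2.37 ± 0.28), and Arhgap11a (1.68 ± 0.18) completed the 4 with the smallest adjusted p. Tumour means over the 72 genes ran from 7.66 in tumour 1 to 8.53 in tumour 6, and those of normal lungs from 7.05 to 7.22.

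DNA replication and G1/S genes rose in 23 of 48 cases (47.9%, where 12.2% of all genes did) and fell in 2 (17.5% of all genes did). Their median difference was 0.52. Mcm7, of the replicative helicase, averaged 2863 ± 679.7 in tumours and 1163 ± 218 in normal lungs (1.27 ± 0.17, adjusted p = 4.87e-05). Rfc3, a clamp loader subunit (1.36 ± 0.14), and Dbf4, the activator of the Cdc7 kinase (1.12 ± 0.13), had smaller adjusted p-values, but Dbf4 missed with its probe set of largest variance (0.14, adjusted p = 0.845) and with the mean of all its probe sets (0.63, adjusted p = 0.0554). Ccnd3, cyclin D3, fell (-1.13 ± 0.15, adjusted p = 5.95e-05), a call lost with the probe set of largest variance (-0.70, adjusted p = 0.387). Timeless, of the replication fork, also fell on the probe set used (-0.87 ± 0.14), but its probe set with the largest variance rose (1.15, adjusted p = 0.00909). The order of tumours was not that of the mitotic genes: tumour 6 was highest at 9.49, but tumour 2 came next at 9.18, above tumour 5 at 8.999, and tumour 1 was again lowest at 8.72, against 8.32 to 8.54 in normal lungs.

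For the anaphase-promoting complex itself, 13 subunits and the activator Fzr1, 0 of 14 genes passed the threshold in limma. Of all genes 12.2% rose and 17.5% fell. An unadjusted p under 0.05 was found for 3 of the 14. Differences ran from -0.35 to 0.39, and the median was 0.11. After median centring 4 were higher, and with the probe set of largest variance 2 were higher and 1 lower. The 4 with the smallest adjusted p were Anapc4 (0.26 ± 0.10), Anapc11 (-0.35 ± 0.14), Anapc5 (-0.27) and Anapc15 (0.39).

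Of 19 regulators of the programme, from the DREAM complex, B-Myb and E2F families, 4 rose and 4 fell (21.1% each, where 12.2% of all genes rose and 17.5% fell), with a median of 0.15. With tumours 4 and 6 alone, 2 rose, in a fit for which no share over all genes is given. E2f8 (1.76 ± 0.44), Lin9, a core subunit of DREAM and of the B-Myb complex (1.08 ± 0.27), Tfdp1 (0.80 ± 0.16) and E2f3 (0.68 ± 0.17) were the risers. E2f2 (-1.50 ± 0.29), Tfdp2 (-0.90 ± 0.17), Rb1, the retinoblastoma protein (-0.71 ± 0.16), and Rbl2, the pocket protein p130 of DREAM (-0.49 ± 0.12), fell. The Rbl2 call was lost after median centring (adjusted p = 0.0629) and with the probe set of largest variance (adjusted p = 0.139). Mybl2, B-Myb itself, missed the threshold (0.38 ± 0.20, adjusted p = 0.213). Of 13 cell cycle inhibitors and growth arrest genes 5 rose and 3 fell. Cdkn1c, the inhibitor p57, averaged 214 ± 81.4 in tumours and 870.0 ± 67.5 in normal lungs (-2.02 ± 0.21, adjusted p = 5.28e-06), and Cdkn2c, p18, fell by 1.31 on the log2 scale. Ccng1, a p53 target (1.63 ± 0.21), Tob1 (0.99 ± 0.14) and Btg1 (0.87 ± 0.15) rose. Cdkn2d, p19, fell (-0.94 ± 0.24), a call lost with Eif2s3y as a covariate (adjusted p = 0.102) and with tumours 4 and 6 alone (adjusted p = 0.123). The Tob1 call was lost with the probe set of largest variance (adjusted p = 0.0883).

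**Figure D4:**
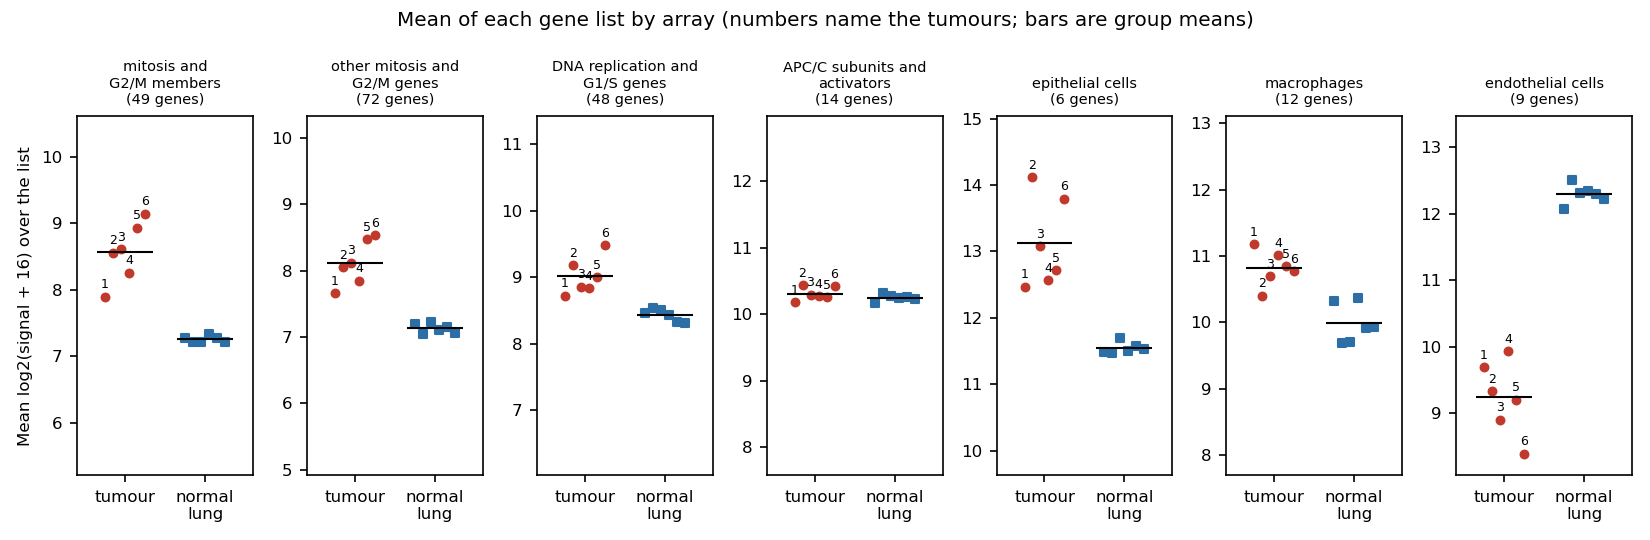
Mean log2(signal + 16) over each gene list by array, tumours (red, numbered) left of normal lungs (blue), 6 arrays each, with group means as bars. The 49 members run from 7.90 to 9.15 in tumours and from 7.21 to 7.33 in normal lungs, while the 14 genes of the anaphase-promoting complex lie at 10.18 to 10.44 and 10.16 to 10.32.

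Endothelial markers ran nearly opposite to the mitotic genes among the tumours. Their list mean was 8.39 in tumour 6, 8.90 in tumour 3, 9.20 in tumour 5, 9.33 in tumour 2, 9.69 in tumour 1 and 9.93 in tumour 4, so that the tumours highest in mitotic genes, 6, 5 and 3, were the lowest in endothelial markers. Of all genes 12.2% rose and 17.5% fell, to be set beside the counts that follow. Macrophage markers rose in 6 of 12 cases and fell in 2. Their list mean was highest in tumours 1 (11.18) and 4 (11.01), the lowest for mitotic genes. The other tumours had 10.40 to 10.85 for this list, and normal lungs 9.70 to 10.37. Epithelial markers were highest in tumour 2 (14.12) and tumour 6 (13.79), and type II cell markers, of which 4 of 9 rose, were lowest in the same tumours (13.12 and 12.87). The remaining tumours were at 14.17 to 14.43 for type II markers, and normal lungs at 13.10 to 13.32. T and natural killer cell markers ranged from 5.92 to 8.14 in tumours and from 7.61 to 8.01 in normal lungs, with 4 of 10 lower. Fibroblast markers fell in 3 of 8 cases, at 9.42 to 10.94 in tumours and 11.22 to 11.64 in normal lungs. Of 8 B and plasma cell markers 1, Sdc1, rose (12.5%, near the 12.2% of all genes) and 3, Cr2, Cd79a and Ms4a1, fell. Erythroid markers had 2 of 6 lower, at 5.63 to 6.95 in tumours and 6.69 to 7.46 in normal lungs. Neutrophil and precursor markers had 0 of 9 called by limma, and 2 with an unadjusted p under 0.05, with normal lung 1 at 12.80 and the other normal lungs at 7.02 to 8.76, and without normal lung 1 the members that rose numbered 40. Hepatocyte markers, 1 of 6 lower, were at 4.89 to 7.75 in tumours, at 10.59 and 11.01 in normal lungs 2 and 4, and at 5.53 to 8.09 in the remaining normal lungs. Without normal lungs 2 and 4, 39 members rose. The part of these cells in the levels of mitotic genes was not tested.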

How the data were processed

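The deposited values are linear signal intensity for each probe set. The submitters' processing notes name MAS5, and the labels a one-cycle cDNA synthesis and biotin label. Version and settings are not given in the sources used here. Every array had the same 2% trimmed mean, so the authors' scaling was kept, although array medians were 126 to 149.8 in tumours and 151 to 164 in normal lungs. Detection calls were not used here, and the number of arrays limits precision. Of 45101 probe sets 64 controls were left out, and 34945 of the 45037 tested had 1 symbol in GEO's platform annotation, 932 several and 9160 none listed.

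From the deposited signals log2(signal + 16) was computed. The fit, 6 against 6 arrays with no covariate, used limma 3.58.1 (R 4.3.3) with an intensity trend in eBayes. It was also run on simulated independent values with equal spread in both groups. That run does not test unequal spreads or genes that vary together. Figures were drawn with matplotlib 3.10.9, and tables made with pandas 2.3.3 on numpy 2.4.6 in Python 3.11.15. Members, lists, alternatives and named genes were chosen with earlier results of these data known, so counts over them are not independent evidence. Signals by array are given for 11 fixed members, the 2 with the smallest adjusted p of each role, and members that missed the threshold or fell. In other lists the 4 smallest adjusted p and up to 4 falls are named, and further genes after their values were seen. Same-numbered arrays were not paired: correlations of their deviations were -0.02 to 0.02.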

Additional observations from a re-analysis of the deposited data

Results flagged for a closer look

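Dixon's gap test at its 95% critical value picked out 6 arrays in 100 groups of 6 (49 genes and their mean, in tumours and in normal lungs), where chance gives about 1 in 20 groups. In 3 cases a tumour stood below the others. Cdk1 was at 168 in tumour 1, against 455 to 758 in the other tumours, Nek2 at 206 in tumour 1, against 331 to 403, and Foxm1 at 66.0 in tumour 4, against 140.0 to 213. In 2 cases tumour 6 stood above the others, with Ndc80 at 316, against 77.2 to 106, and Anln at 1420, against 409 to 614. In normal lung 1 Espl1 was at 36.8, against 104 to 152 in the other normal lungs.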

How the results depend on the processing

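Under 12 fits that left out 1 array and 14 other settings, between 32 and 43 members rose and in each 1 fell. Shares of all genes that rose or fell are given for the main fit only. Leaving out 1 array gave 39 to 43 risers, 33 to 38 at least 2-fold, and a median difference of 1.30 to 1.58. Members whose groups did not overlap numbered 27 to 39, the highest without tumour 1. Dropping an array can only keep or raise that count, so its range is no check of it. Its share over all genes in these fits is not given. Of the 43 calls 38 held in all 12 such fits and 32 in every setting that measured the gene. The 5 lost with 1 array were Aurkb, Espl1, Kif11, Ndc80 and Plk4; Aspm, Cenpa, Cenpe, Racgap1, Smc2 and Ttk were lost elsewhere. The filter on dim probe sets measured 36 members. With the replicate block 39 members rose and the calls of Ndc80, Aurkb and Smc2 were lost. The share of calls that were higher was 41.1% of all genes in the main setting and 59.9% after median centring, which moved the median of all genes to 0.11; 47 members were positive in both. Tumour 6 was highest and tumour 1 lowest in each setting with means by array that held them. Without them tumour 5 was highest and tumour 4 lowest. Leaving out an array could not change the mean of another. Other mitosis genes that rose numbered 33 to 41 with 1 array left out, 23 with the filter, which tests fewer genes, and 24 with tumours 4 and 6 alone. Replication genes lower numbered 1 with the mean of all probe sets and 0 with the largest variance, and 2 to 3 with 1 array left out. Inhibitors that rose numbered 3 with the largest variance and 3 with tumours 4 and 6 alone, and DREAM and E2F genes 2 with those tumours. Anaphase-promoting complex genes higher numbered 4 after median centring, 2 with the largest variance, and 1 with the filter, array weights or the mean of all probe sets. Those lower numbered 1 after quantile normalization, with array weights, the mean or the largest variance. With 1 array left out 0 to 1 were higher and 0 to 1 lower. With the largest variance Ncaph (-0.085), Anapc11 (0.66), Anapc5 (0.030) and Timeless (1.15) changed sign, as did Timeless with the mean (0.14). The setting by mean log2 value was chosen after seeing the data and changed none of the 43 calls. Causes were not tested.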
